A study of Mus musculus with 2 samples.

Results

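Broad LSD1 peaks are the long end of the deposited peak list: peaks of 1 kb or longer on chromosomes 1 to 19 of the mouse build mm9. The members were chosen by their measured length alone, as the list gives it, and peaks of chromosome 4 starting between 143 and 150 Mb were left out. That gave 520 broad peaks among 10460 autosomal peaks, out of 11797 peaks in the whole list. Of the 520, 448 were 1 kb to under 2 kb long and 72 were 2 kb or longer. The other 9940 autosomal peaks, all under 1 kb, are called shorter peaks here.

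The series compared chromatin pulled down with a polyclonal antibody against LSD1 with input chromatin that saw no antibody, 1 library each. Both came from C2C12 cells, a line of mouse myoblasts, grown in 25 mM glucose with 10% fetal bovine serum and then kept in 25 mM glucose with 2% horse serum for 48 h so that they differentiated. The chromatin was fixed with formaldehyde and disuccinimidyl glutarate, and the libraries were 170 to 500 bp long, shorter than every broad peak. C2C12 is 1 cell line, no second LSD1 library was analysed here, and no genotype or treatment differed between the libraries.

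LSD1, also named KDM1A, is an enzyme that takes methyl groups off histone H3. It works inside larger complexes, among them the CoREST repressor complex, and is found at promoters and enhancers. In myoblasts it has been studied for its part in switching on muscle genes. A peak is a stretch in which the ChIP library held more reads than the input. Its length is where that excess began and ended by the peak caller's rule, so a broad peak may be 1 wide domain or several sites close together.

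Because length chose the broad peaks, and their positions and scores come from the same ChIP and input comparison, every value below is a description without a test. Intervals are exact (Clopper-Pearson) 95% intervals. They cover counting error only and treat peaks as independent, which peaks in groups are not, so they are too narrow. The list names no genes, and no gene or sequence of mm9 was used here.

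Broad peaks were few and, being chosen by length, necessarily held a larger share of the sequence under LSD1 peaks than of the peaks. They made up 4.97% of the autosomal peaks and 16.2% of the sequence those peaks covered, 917 of 5657 kb. Their median length was 1214.5 bp, with quartiles of 1088.75 and 1501.5 bp, against a median of 429 bp in shorter peaks. Peaks of 2 kb or longer were 0.688% of the autosomal peaks and covered 362 kb, with a median of 2997 bp and a longest peak of 21363 bp. Only 22 peaks reached 5 kb, and 15 of them lay on chromosome 5, 6 on chromosome 8 and 1 on chromosome 1. Of the 8 that reached 10 kb, 7 were on chromosome 5 and 1 on chromosome 8.

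The 1 kb limit fell within a continuous range of lengths. Just inside it were 2 peaks of 1000 bp, on chromosome 15 at chr15:25325839-25326838 (score 53.58) and on chromosome 5 at chr5:34877541-34878540 (score 62.46). Just outside were 2 peaks of 999 bp, at chr1:55585529-55586527 (score 256.95) and chr13:49679106-49680104 (score 131.76). At the 2 kb limit the nearest lengths were 2013 bp, at chr10:103617567-103619579, and 1984 bp, at chr5:14924916-14926899.

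Broad peaks more often had another LSD1 peak close by. Distance is counted in bases between the edges of a peak and those of the nearest other autosomal peak of any length. Of the 520 broad peaks, 283 (54.4%, interval 50.03 to 58.8%) had another peak within 10 kb. Among shorter peaks the share was 30.6% (3039 of 9940, interval 29.7 to 31.5%), and over all autosomal peaks it was 31.8%. The median distance was 6623 bp for broad peaks and 35776.5 bp for shorter ones. On 15 of the 19 autosomes the share was higher among broad peaks than among shorter peaks of the same chromosome. Among these 15, chromosome 12 was close to a tie, at 33.33 and 33.26%. With the shorter peaks weighted to the chromosomes on which the broad ones lay, their share was 32.8%, and the difference was 21.6 percentage points in place of 23.8.

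Closeness was greatest among the longest peaks. For peaks of 1 to 2 kb the share with a neighbour within 10 kb was 49.6% (222 of 448, interval 44.8 to 54.3%) and the median distance was 10590.5 bp. For peaks of 2 kb or longer the share was 84.7% (61 of 72, interval 74.3 to 92.1%) and the median distance was 321 bp. Within 1 kb the shares were 24.6% and 62.5%, against 10.8% of shorter peaks and 11.8% of all autosomal peaks. Peaks of 2 kb or longer also had broad peaks as neighbours: the nearest other peak was itself broad for 50 of 72 (69.4%). The same held for 78 of 448 peaks of 1 to 2 kb (17.4%), 411 of 9940 shorter peaks (4.13%) and 5.15% of all autosomal peaks.

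**Figure D1:**
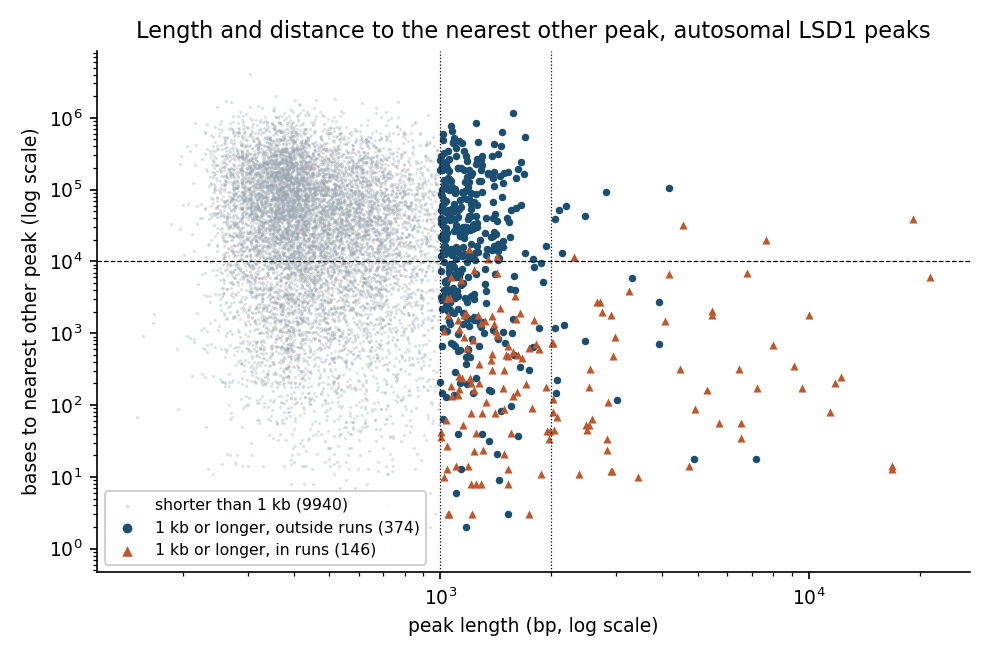
Distance in bases to the nearest other autosomal peak against peak length, both on log scales, for 10460 autosomal LSD1 peaks; dotted lines mark 1 and 2 kb and the dashed line 10 kb. Peaks of 2 kb or longer sit mostly below the dashed line (61 of 72), and the triangles, broad peaks in runs of at least 5, hold 21 of the 22 peaks of 5 kb or longer.

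The share with a close neighbour already rose with length below 1 kb. It was 24.9% among peaks of 150 to 300 bp, 35.1% at 500 to 750 bp and 40.1% at 750 to 1000 bp. Peaks of 1000 to 1250 bp, at 46.7% (interval 40.8 to 52.6%), and of 1250 to 1500 bp, at 44.7% (34.9 to 54.8%), lay a little above that, and their intervals reach down to or near the class below. From 1500 to 2000 bp the share was 72.4% (59.1 to 83.3%), from 2 to 5 kb it was 82.0%, and from 5 kb on it was 90.9%, 20 of 22 peaks. The largest step between neighbouring classes lay at 1.5 kb, not at the 1 kb limit. Outside the runs described further on, the share was lower on both sides of this step. It was 38.2% at 1000 to 1250 bp, 29.5% at 1250 to 1500 bp (19.7 to 40.9%) and 50% at 1500 to 2000 bp (31.9 to 68.1%). The last of these intervals overlaps the one before it.

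**Figure D2:**
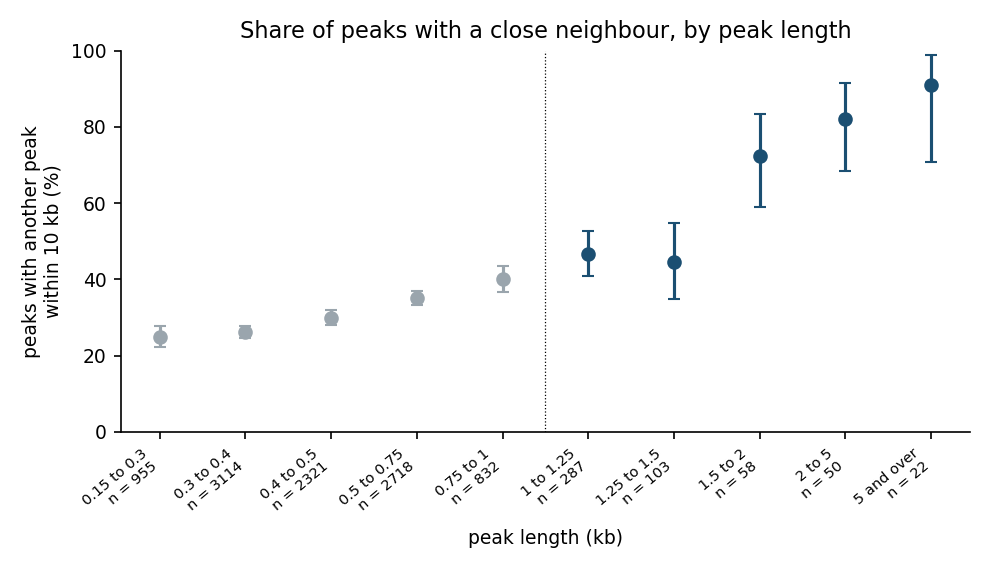
Percent of autosomal LSD1 peaks with another peak within 10 kb, in 10 classes of peak length in kb (n under each), with exact 95% intervals; grey points are shorter than 1 kb and dark points are broad. The share climbs slowly from 24.9% to 46.7% up to 1250 bp and lies at 72.4 to 90.9% from 1.5 kb on.

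Gaps of a few bases separated some of the longest peaks. Of the 72 peaks of 2 kb or longer, 23 (31.9%, interval 21.4 to 44.0%) had another peak within 100 bp, against 10.0% of peaks of 1 to 2 kb and 2.63% of shorter ones. The peak at chr5:15112661-15129493, 16833 bp long, ended 13 bases before the next. On chromosome 1, peaks of 4884 and 7192 bp lay 18 bases apart, at chr1:90114619-90119502 and chr1:90119521-90126712, with scores of 920.17 and 894.39. With peaks no more than 1 kb apart merged, the autosomal list came to 9755 regions, 820 of at least 1 kb and 182 of at least 2 kb. The longest joined region was 30259 bp, at chr5:14902548-14932806.

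Broad peaks had higher scores, but not all of them did. The score is the authors' own value for each peak, of unstated scale, set by the same peak caller that set the length. The median score was 188.325 in broad peaks (quartiles 107.532 and 317.29), 179.94 at 1 to 2 kb and 265.655 at 2 kb or longer, against 76.28 in shorter peaks. When autosomal scores were split at their quartiles, 366 broad peaks (70.4%) fell in the top class, above 118.972, and 20 (3.85%) in the lowest class.

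Within these score classes, broad peaks still had close neighbours more often in 3 of the 4. In the class from 59.9 to 78.0, 55.1% of 49 broad peaks and 29.8% of shorter ones had another peak within 10 kb. The next class gave 56.5% of 85 against 32.3%, and the top class 55.5% of 366 against 34.1%. In the lowest class the values were 25.0% of 20 broad peaks (interval 8.66 to 49.1%) and 26.6% of shorter ones. Among shorter peaks the share thus went from 26.6 to 34.1% over the range of the score. For broad peaks outside the runs described below, the top class gave 39.8% of 261 (interval 33.9 to 46.1%). The lowest class gave 16.7% of 18 such peaks.

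**Figure D3:**
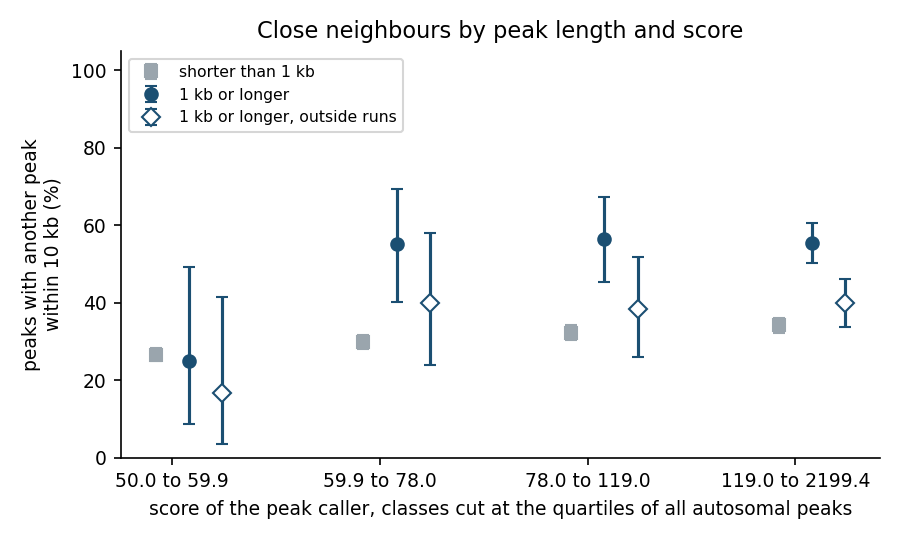
Percent of peaks with another peak within 10 kb in 4 score classes cut at the quartiles of all autosomal peaks, with exact 95% intervals, for shorter peaks (squares), broad peaks (filled circles) and broad peaks outside runs (open diamonds). Broad peaks lie at 55.1 to 56.5% in the upper 3 classes, shorter peaks at 29.8 to 34.1% and broad peaks outside runs at 38.3 to 40%. In the lowest class broad peaks lie at 25.0%, shorter peaks at 26.6% and broad peaks outside runs at 16.7% (3 of 18).

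Many broad peaks stood in runs, series of at least 5 broad peaks whose neighbouring edges lie within 50 kb of each other. There were 15 runs on 8 chromosomes, with 146 of the 520 broad peaks (28.1%, interval 24.3 to 32.2%) and 47.1% of the sequence under broad peaks. Runs were built from broad peaks alone, so no matching share exists for shorter peaks or for all autosomal peaks. The share in runs depended on the definition. It was 16.5% with edges linked within 10 kb and 28.8% within 100 kb. With a length limit of 1.5 kb for broad it was 52.3%. Without dense regions of at least 20 peaks it was 12.2%, but that step takes out the runs lying in such regions. The 15 runs held 54 of the 72 peaks of 2 kb or longer (75%, interval 63.4 to 84.5%) and 92 of the 448 peaks of 1 to 2 kb (20.5%). Of the other broad peaks, 304 had no other broad peak within 50 kb, 36 stood in pairs and 34 in groups of 3 or 4. The median score was nearly equal in and outside runs, 188.325 and 188.33, while the median length was 1573.5 and 1166 bp.

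Leaving out the runs lowers the share with a close neighbour by construction, since runs are made of broad peaks near each other, and no such filter was put on shorter peaks. Of the 374 broad peaks outside runs, 144 (38.5%, interval 33.5 to 43.6%) had another peak within 10 kb, 7.93 percentage points above all shorter peaks. Chromosome 15, where shorter peaks too were crowded, held 20.9% of these 374. With shorter peaks weighted to the same chromosomes the difference was 5.39 points. On 12 of 19 chromosomes the share was higher among broad peaks outside runs, with chromosome 12 again close to a tie. The 18 peaks of 2 kb or longer outside runs still had a neighbour within 10 kb in 11 cases (61.1%, interval 35.7 to 82.7%).

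The longest run lay on chromosome 5 at chr5:14871086-15045888. It had 20 broad peaks, 13 of them 2 kb or longer, with 5 shorter peaks between them, and its broad peaks covered 60.9% of 174.803 kb. Scores in it ran from 63.68 to 1906.29, with a median of 216.91. After a gap of 66.8 kb without a peak, a second run followed at chr5:15112661-15222263, with 12 broad peaks, 10 of them 2 kb or longer, that covered 74.1% of 109.603 kb. These neighbouring runs held the 7 peaks of chromosome 5 that reached 10 kb. In the first of them these were 21363 bp at chr5:14970388-14991750 (score 1906.29), 16885 bp at chr5:15017679-15034563 (63.68) and 10051 bp at chr5:14946723-14956773 (158.69). In the second they were 16833 bp at its start (1888.08), 12221 bp at its end (174), 11795 bp at chr5:15158234-15170028 (497.34) and 11457 bp at chr5:15144923-15156379 (897.68). Peaks of more than 10 kb in neighbouring places thus stood at both ends of the score range. A further run, at chr5:26379806-26447101, was thinner: 6 broad peaks covered 19.6% of it, and 1 of them, of 6473 bp, was over 2 kb.

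Chromosome 8 had 2 runs near each other, both with peaks of more than 9 kb, but spaced differently. At chr8:19680376-19767782, 9 broad peaks from 1020 to 9593 bp covered 41.5% of 87.407 kb, and the median gap between them was 1346 bp. At chr8:19868090-20008628, 6 broad peaks and no shorter one covered 30.6% of 140.539 kb with a median gap of 19863 bp, and their scores ran from 62.04 to 2199.37. The last of these, 19175 bp long at chr8:19989454-20008628, carried the highest score of the 10460 autosomal peaks. The peak of 7639 bp before it, at chr8:19943433-19951071, carried the lowest score of the run, and a peak of 6799 bp at chr8:19916771-19923569 had 92.22. A peak of 2830 bp at chr8:19904984-19907813 had 1870.01, so that within this run a long peak could score low and one of under 3 kb high. A run farther along, at chr8:85394361-85492743, held 5 broad peaks of 1238 to 1423 bp with 7 shorter ones and covered 6.92% of its span.

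The remaining runs with shorter peaks in them differed in how many they held. On chromosome 16, at chr16:3233675-3344880, 17 broad peaks and 13 shorter ones lay over 111.206 kb, and the median length of the broad ones was 1247 bp. On chromosome 14, at chr14:43939971-44077172, 14 broad peaks stood among 30 shorter ones. On chromosome 13, at chr13:12898387-13060110, 10 broad peaks stood among 35 shorter ones, none reached 2 kb, and broad peaks covered 8.36%. Chromosome 3 had a run of 11 at chr3:92020429-92091851, with 3 shorter peaks and 4 peaks of 2 kb or longer, up to 4070 bp, and one of 10 at chr3:93571426-93628841, with 17 shorter peaks between. The median scores of the broad peaks in these runs of chromosome 3 were low for broad peaks, 116.51 and 117.155. Chromosome 10 had a run of 9 broad and 9 shorter peaks at chr10:99795796-99843300, and chromosome 13 a further run of 5 broad and 2 shorter peaks at chr13:65614234-65642780. The median score of the broad peaks was 137.52 in the former and 112.07 in the latter, lower still than on chromosome 3.

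A pair of short runs, each about 21 kb long, held 6 broad peaks and, between the first and last of these, no shorter one. At chr10:103609065-103630063 the 6 lengths, from first to last, were 2021, 1822, 2013, 2026, 1153 and 2489 bp. The gaps between them were 709, 3950, 726, 4037 and 53 bp, so that short and long gaps alternated. Another peak, not counted in this run, lay 122 bp before its first peak. At chr1:90186498-90207470 the 6 lengths were 2670, 1450, 2972, 2945, 2495 and 2040 bp, with gaps that fell from 2743 to 45 bp along the run. Broad peaks covered 54.9% of the first and 69.5% of the second.

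**Figure D4:**
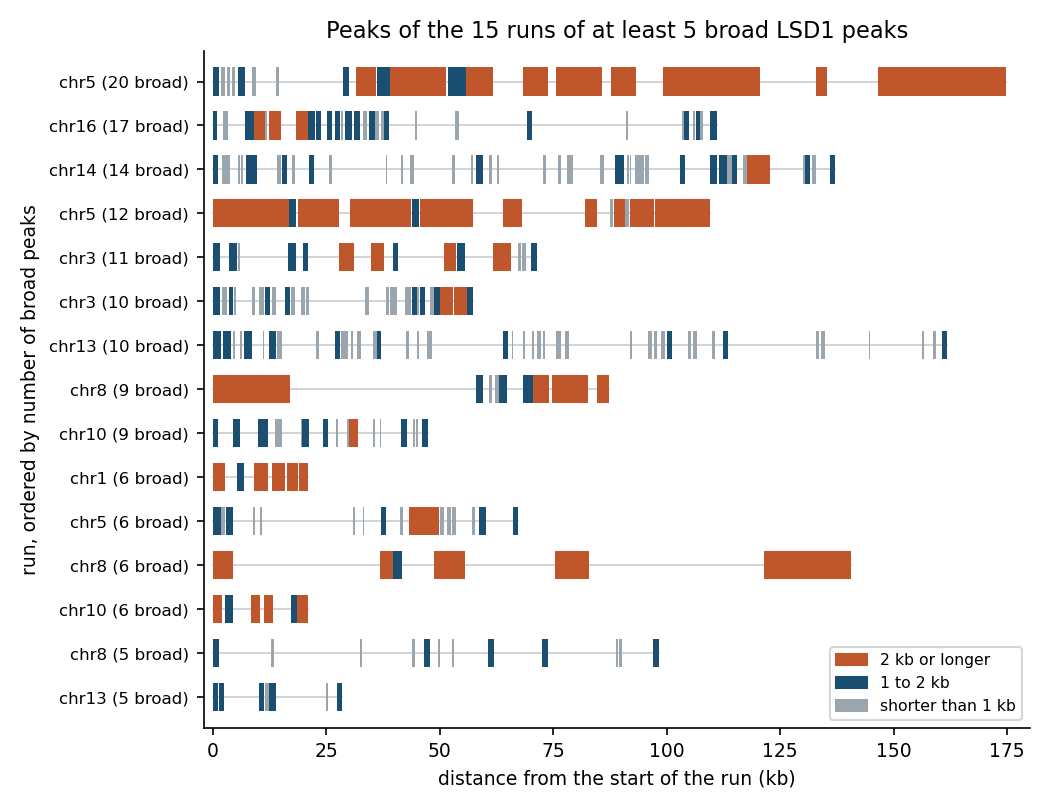
Peaks of the 15 runs, each drawn from its own start in kb and ordered by the number of broad peaks; orange blocks are 2 kb or longer, dark blocks 1 to 2 kb and grey blocks shorter than 1 kb. The runs of 20 and 12 broad peaks on chromosome 5 are filled largely by long blocks (60.9 and 74.1% covered), while the 10 broad peaks on chromosome 13 are scattered among 35 shorter peaks.

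Chromosomes differed in how many of their peaks were broad. Against 4.97% over all autosomes, the share was highest on chromosome 5 (57 of 539, 10.6%, interval 8.11 to 13.5%), chromosome 16 (30 of 376, 7.98%), chromosome 15 (78 of 1044, 7.47%, interval 5.95 to 9.24%) and chromosome 8 (56 of 833, 6.72%). It was lowest on chromosome 9 (4 of 354, 1.13%, interval 0.309 to 2.87%), chromosome 7 (6 of 408, 1.47%), chromosome 18 (6 of 327, 1.83%) and chromosome 2 (12 of 630, 1.90%). In all, 8 chromosomes lay above the autosomal share, with the whole interval above it on 4, and the whole interval lay below it on 6. Peaks of 2 kb or longer were still more uneven: chromosome 5 held 24, chromosome 8 held 13 and chromosome 1 held 10, while 6 chromosomes held none.

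The high share of chromosome 5 came with its runs, and that of chromosome 15 did not. On chromosome 5, 38 of the 57 broad peaks and all 24 of 2 kb or longer stood in runs. With the broad peaks of runs taken out, 3.79% of its remaining peaks were broad, against 3.63% over all autosomes. Shorter peaks inside runs stayed in these counts. Chromosome 16 went from 7.98 to 3.62% and chromosome 3 from 4.68 to 1.75% in the same way. On chromosome 15 no broad peak stood in a run: 59 of its 78 had no other broad peak within 50 kb and its largest group had 3. These 78 made up 15% of all broad peaks. Of the 98 windows of 1 Mb with a peak on chromosome 15, 43 held a broad one, against 20 of 131 on chromosome 5. Peaks of any length were also more numerous on chromosome 15, 1044 against 539, and the window counts were not adjusted for that. Chromosomes 11 and 17 also lay above the autosomal share with no run, at 5.41 and 5.76%.

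The difference in closeness between broad and shorter peaks also varied between chromosomes, and how far it came with the runs was not tested. On chromosome 5, 75.4% of broad and 26.3% of shorter peaks had another peak within 10 kb, and outside its runs 6 of 19 broad peaks did (31.6%). On chromosome 14 the shares were 78.3 and 29.4%, and on chromosome 3 they were 72.7 and 26.5%. Outside their runs, 4 of 9 broad peaks on chromosome 14 (44.4%) and 3 of 12 on chromosome 3 (25.0%) had such a neighbour. Chromosome 1, with 6 of its 38 broad peaks in a run, had 63.2 and 27.1%, and chromosome 2, with no run, had 41.7% of 12 broad peaks and 20.1% of shorter ones. Chromosome 8, with 20 broad peaks in runs, showed a small difference, 53.6 and 47.6%, as did chromosome 15 with none, 48.7 and 43.4%. Outside the runs of chromosome 8 the share of broad peaks was 41.7% (15 of 36), below that of its shorter peaks. On chromosome 12 the shares were 33.3 and 33.3%. The order was the reverse on 4 chromosomes, all with few broad peaks. On chromosome 6, 1 of 15 broad peaks (6.67%) had such a neighbour against 20% of shorter ones, on chromosome 18 it was 1 of 6 (16.7%) against 27.7%, and on chromosomes 9 and 19 it was none of 4 and none of 6.

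**Figure D5:**
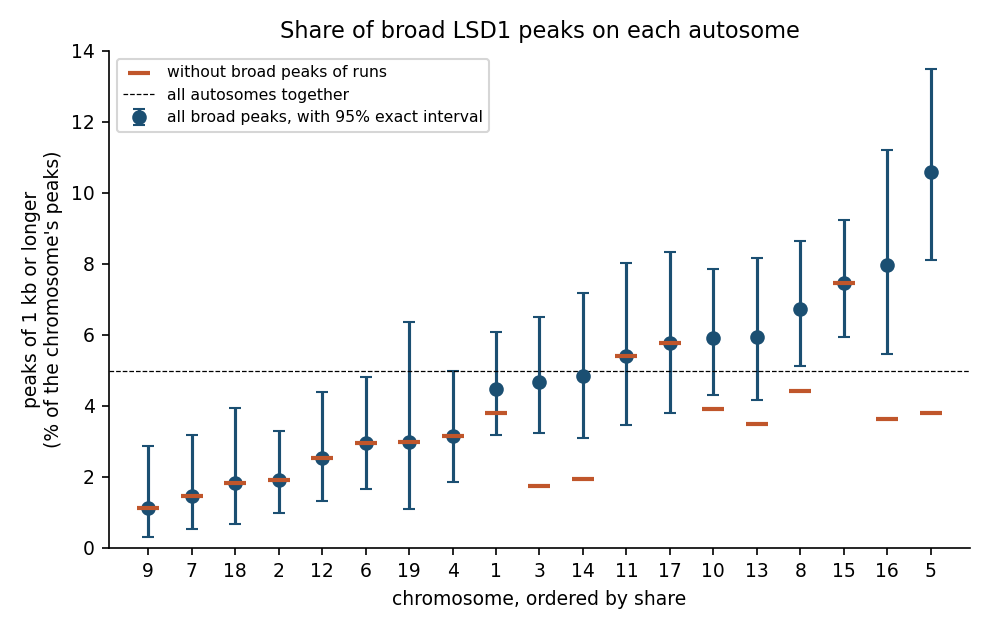
Percent of each autosome's LSD1 peaks that are 1 kb or longer, ordered by share, with exact 95% intervals (circles), and the same without broad peaks of runs (orange bars); the dashed line is 4.97%, all autosomes together. Chromosomes 5 and 16 fall to 3.79 and 3.62% without the broad peaks of runs, while chromosome 15 stays at 7.47%.

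Most stretches of the genome with LSD1 peaks held no broad one. Of 2174 windows of 1 Mb with an autosomal peak, 288 (13.2%) held a broad one, and 211 of these held 1. The 10 richest windows held 120 broad peaks, 23.1% of the 520, and peaks of 2 kb or longer were found in 25 windows. Choosing the richest windows makes that share high in advance, and the share of shorter peaks in them is not given here. Positions on mouse chromosomes are counted from the centromeric end. In the first 5 Mb lay 29 broad peaks (5.58%, interval 3.77 to 7.91%), against 2.08% of shorter peaks and 2.26% of all autosomal peaks. The run on chromosome 16 held 17 of those 29, and outside runs the share was 3.21% (12 of 374, interval 1.67 to 5.54%). In the first 10 Mb the shares were 8.65% of broad peaks and 6.02% of all autosomal peaks.

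Broad peaks far from any other peak were mostly under 2 kb long. No other peak lay within 50 kb of 127 broad peaks (24.4%, interval 20.8 to 28.4%), against 43.3% of shorter peaks and 42.3% of all autosomal peaks. Their median length was 1157 bp, their median score was 158.83 and 4 of them reached 2 kb. Scores among the 127 ran from 50.85 to 615.41. The 4 that reached 2 kb lay at chr18:4195106-4199277 (4172 bp, score 119.47), chr11:3097274-3100087 (2814 bp, 546.05), chr6:91569015-91571202 (2188 bp, 128.23) and chr15:54963695-54965788 (2094 bp, 121.58). The next in length, at chr5:28363503-28365201 with 1699 bp, had a score of 50.85, near the lowest in the list.

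High scores were found in broad peaks both in runs and outside them. Among the 10 highest-scoring broad peaks, 6 stood in the runs of chromosomes 5 and 8 described above, and 2 were the abutting pair on chromosome 1. The other 2 were moderately broad peaks of chromosome 15 outside runs, at chr15:33836219-33837478 (1260 bp, score 938.94, next peak 16143 bp away) and chr15:6971629-6973527 (1899 bp, 922.53, 5118 bp away). At the other end, the lowest score among peaks of 2 kb or longer was 50.14, in a peak of 2137 bp at chr8:89343198-89345334. The peak of 16885 bp on chromosome 5 had 63.68, below the median of shorter peaks, and lay 14 bases from the next. On chromosome 1 a peak of 2972 bp at chr1:90195592-90198563, in the short run there, had 92.53.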

How the data were processed

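Reads were aligned with BWA to mm9, per the submitters' processing notes, which give no version. Peaks were called with MACS in Galaxy, per the file headers, from 1 LSD1 ChIP library against 1 input library. The deposited list gives 1 score per peak; its scale is not given in the sources used here, nor are the version of MACS, its settings or how duplicate reads were treated. Without read numbers the depth is unknown, and without replicates there is no replicate error. A caller's rules on merging and width set both the lengths and the gaps described here.

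Length is the end minus the start of each row; positions are printed 1-based. Shares, distances, runs and joined regions were computed from the rows, and the functions were tested on simulated data. The members, classes and alternatives were chosen with earlier results of these data known. Peaks were named by a fixed rule: the 10 longest, the 10 highest-scoring, the 5 of 2 kb or longer with the lowest score, the 5 longest with no peak within 50 kb, and each run of at least 5; peaks at the length limits and the abutting pair were named after their values were seen. The gene tables in hand were of GRCm38 and were not used. Scripts ran under Python 3.11.15 with pandas 2.3.3, scipy 1.17.1 for intervals, matplotlib 3.10.9 for plots, and numpy 2.4.6.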

Additional observations from a re-analysis of the deposited data

Results flagged for a closer look

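Broad peaks were also present in the list on sequence that entered none of the comparisons above, which is why they are given here. Chromosome X held 77 peaks of 1 kb or longer among 686 (11.2%, exact 95% interval 8.96 to 13.8%), 25 of them 2 kb or longer. Unplaced or unlocalised sequence held 59 among 304 (19.4%, interval 15.1 to 24.3%), with 19 of 2 kb or longer. The part of chromosome 4 that was left out held 90 among 346 (26.0%, interval 21.5 to 31.0%), with 25 of 2 kb or longer. The median length of these broad peaks was 1483, 1494 and 1504.5 bp. The differences from the 4.97% of the autosomes were not tested.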

How the results depend on the processing

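Under every alternative tried, broad peaks had the higher share with a neighbour within 10 kb and the higher median score. With a limit of 1.5 kb for broad, the share with a close neighbour was 79.2%, 48.1 percentage points above shorter peaks. The class was then 1.24% of the peaks, 52.3% of it stood in runs, and its median score was 153.76 higher. At 2 kb these values were 84.7%, 53.3 points, 0.688%, 45.8% and 188.025, and 5 chromosomes in place of 8 lay above the autosomal share. With peaks no more than 1 kb apart merged, there was a share of 44.1%, a class of 8.41% of regions, 19.5% in runs and a score difference of 76.17. Among peaks scoring at or above the autosomal median the share was 49.4%, the class 8.62% and the part in runs 26.6%. Without dense regions (20 or more peaks with neighbouring starts no more than 50 kb apart), the share was 43.2%, the difference 15.2 points, the class 4.13% and the part in runs 12.2%.

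With the left-out stretch of chromosome 4 kept in, the values were 60.8%, 28.7 points, 5.65% and 35.7%. With chromosome X added, the share was 59.5%, the difference 28.3 points and the part in runs 34.7%. Within 1 kb the share was 29.8% and the difference 18.96 points, and within 50 kb 75.6% and 18.8 points. With runs linked within 10 kb, 16.5% of broad peaks stood in them, and within 100 kb 28.8%.

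The following were chosen after seeing the data. Without the broad peaks of runs, the share was 38.5%, the class 3.63% and the difference 7.96 points, with the share of shorter peaks counted anew at 30.5% after those peaks were taken out. Without 14 to 16 Mb of chromosome 5 and 19 to 21 Mb of chromosome 8, the class was 4.55% and 20.9% of it stood in runs. With each autosome left out in turn, the share ran from 51.8 to 55.8% and the difference from 21.05 to 26.2 points. The part in runs was 23.3% without chromosome 5 and 33.0% without chromosome 15. Depth is unknown, so how far weaker flanks or neighbours went uncalled cannot be estimated. No paired analysis was possible because there was 1 ChIP and 1 input library, compared in 1 list, and so there was no replicate to leave out.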
